A study of Homo sapiens with 8 samples.

Results

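Cells copy and rewrite chemical marks on DNA and on histones, and the 10 genes described here encode enzymes and one partner protein of that traffic. DNMT1 and UHRF1 maintain CpG methylation, DNMT3A and DNMT3B lay it down de novo, TET1, TET2 and TET3 oxidise 5-methylcytosine, and KDM5A, KDM5B and KDM5C take methyl groups off lysine 4 of histone H3 (H3K4). They were taken by symbol from the 26364 genes of the count table, all 10 were found, and all 10 were among the 14201 genes with enough reads to be tested. Upon TMZ, UHRF1 fell steeply in Surv-GFP and slightly in SurvNESmut-GFP, while DNMT1 did not pass the test in either clone. TET2 and TET3 rose in Surv-GFP, while TET1 and TET3 rose in SurvNESmut-GFP. KDM5C rose in Surv-GFP, while all 3 KDM5 genes fell in SurvNESmut-GFP. In SurvNESmut-GFP the fall of UHRF1 did not pass the test in 5 alternative settings. There the fall of KDM5C did not pass in 4 and the rise of TET3 in 1.

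RNA was sequenced from 2 stable clones of LN229, a human glioblastoma line, and each clone is a single G418-resistant line carrying a pcDNA3.1 plasmid with BIRC5 (Survivin) cDNA fused to eGFP. Surv-GFP (D6) carries Survivin with a functional nuclear export sequence (NES) and mainly cytoplasmic protein, and SurvNESmut-GFP (L2) carries Survivin mutated in the NES, which is trapped in the nucleus. Cells of either clone received no drug or temozolomide (TMZ, an alkylating drug from a DMSO stock) at 50 µM for 48 h, which gives 4 groups of 2 libraries lettered a and b. No source used here says whether untreated cells received DMSO, so drug and solvent may not be separable in the TMZ effects. With 1 clone per construct, the Survivin form and other differences between the clones cannot be told apart. The study describes independent biological replicates with technical duplicates of each, and no source says which of these the letters stand for, so p-values measure the spread between letters, which may be technical. RNA was taken from whole cultures, in which fewer cells of a kind and less RNA per cell cannot be told apart. All comparisons draw on the same 8 libraries and share groups.

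Each library held 15826923 to 18861603 reads counted on genes. Levels are given as CPM, a gene's count relative to the library's total after scaling by TMM factors, which lay between 0.978 and 1.02. Tests are edgeR's quasi-likelihood F tests, a gene was called at a Benjamini-Hochberg adjusted p under 0.05 over all 14201 genes, and ± after a log2 fold change is its standard error from the fit. CDKN1A (p21), a p53 target, went from 81.9 ± 6.6 (SD, n = 2) to 941 ± 47.8 CPM upon TMZ in Surv-GFP and from 118 ± 1.07 to 460 ± 44.6 CPM in SurvNESmut-GFP, so both exposures are visible in the libraries so labelled. BIRC5, whose reads come from the transgene and the endogenous gene together, went from 1133 ± 27.9 to 1984 ± 64.6 CPM and from 411 ± 5.22 to 258 ± 6.89 CPM. Of 12 markers looked up for glioma cells, VIM (2348 to 3783 CPM), NES (524 to 1006) and CD44 (566 to 742) were high in all libraries. GFAP had at most 17, SOX9 at most 3 and OLIG1 2 to 93 counts per library. Other markers of this list ranged widely over the libraries, PTPRZ1 from 13.4 to 405, FABP7 from 5.73 to 188, PDGFRA from 6.14 to 52.6 and OLIG2 from 5.55 to 35.2 CPM. SOX2 had 19.4 to 92.6 CPM and EGFR 48.3 to 101 CPM. The summed level of the 12 glioma cell markers was 5812 to 5884 CPM in untreated and 3962 to 4059 CPM in TMZ-exposed Surv-GFP. In SurvNESmut-GFP it was 4706 to 4905 and 4154 to 4280 CPM. In both clones this sum came mostly from VIM, NES and CD44. Of another 12 markers, of other cell types, 8 had at most 13 counts in every library, among them PTPRC of leukocytes, CDH5 of endothelium and RBFOX3 of neurons. KRT18, CD68 and SNAP25 were expressed in all libraries, and MBP had 0 counts in the Surv-GFP libraries and 102 to 131 in those of SurvNESmut-GFP. The summed level of the markers of other cell types was 160 to 161 CPM in untreated and 292 to 298 CPM in TMZ-exposed Surv-GFP, and 170 to 179 and 233 to 254 CPM in SurvNESmut-GFP, mostly from KRT18. The part of either marker sum in the results below was not tested.

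In dividing cells, replication leaves CpG sites methylated on the parental strand only. UHRF1 binds such hemimethylated sites and directs DNMT1 to them, so the mark is restored after each round, and loss of either protein leads to passive demethylation. DNMT3A and DNMT3B act without such a template. The TET enzymes are dioxygenases that need iron and 2-oxoglutarate, and the KDM5 proteins, JmjC-type demethylases with the same cofactors, remove tri- and dimethylation of H3K4, a mark of active promoters that also hinders de novo methylation. Mutant IDH1 or IDH2 inhibits both dioxygenase families in gliomas, which is one reason they are followed in this tumour type.

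The start site of DNMT1 and the first and second start sites of UHRF1 carry E2F words. E2F factors are known to bind such words in genes of the G1/S transition. The promoters below are shown for that reason. They come from RefSeq (GRCh38.p14), run 5′ to 3′ on the gene's strand from 250 bases before to 50 bases after the start site, and have the E2F word in capitals.
DNMT1, chr19:10194904-10195203, minus strand: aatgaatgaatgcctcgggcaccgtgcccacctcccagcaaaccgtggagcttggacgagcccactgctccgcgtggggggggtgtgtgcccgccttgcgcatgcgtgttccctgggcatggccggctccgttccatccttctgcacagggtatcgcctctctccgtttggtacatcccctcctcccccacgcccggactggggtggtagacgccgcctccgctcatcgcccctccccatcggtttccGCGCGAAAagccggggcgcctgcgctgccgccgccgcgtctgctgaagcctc
UHRF1 first start site, chr19:4909251-4909550, plus strand: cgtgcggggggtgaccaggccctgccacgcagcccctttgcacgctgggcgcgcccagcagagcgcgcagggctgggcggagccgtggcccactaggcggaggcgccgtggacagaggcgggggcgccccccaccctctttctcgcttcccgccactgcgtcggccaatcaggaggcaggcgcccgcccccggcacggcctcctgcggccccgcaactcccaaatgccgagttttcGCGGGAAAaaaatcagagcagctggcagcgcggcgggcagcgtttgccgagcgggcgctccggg
UHRF1 second start site, chr19:4909894-4910193, plus strand: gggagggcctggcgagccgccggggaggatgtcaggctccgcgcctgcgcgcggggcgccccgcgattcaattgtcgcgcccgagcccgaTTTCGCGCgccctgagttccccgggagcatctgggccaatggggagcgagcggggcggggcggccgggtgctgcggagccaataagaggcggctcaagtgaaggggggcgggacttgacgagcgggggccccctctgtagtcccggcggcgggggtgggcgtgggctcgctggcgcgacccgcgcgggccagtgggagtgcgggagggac
The words searched were TTTCCCGC, TTTCGCGC, TTTGCCGC and TTTGGCGC on both strands, and 3.31% of 35114 promoters of 300 bases held at least 1. Among the 21 start sites listed for the 10 genes, the 3 shown above held 1 match each. DNMT1 and UHRF1 were thus the only genes of the group with a match at a listed start site. The match began 2 bases before the start in DNMT1 and 14 and 160 bases before it in UHRF1, and no match overlapped a CCAAT box. Of 27 genes of S phase with a promoter in the table, 16 held such a word, against 3.99% of all 27305 genes. These promoters were also rich in CpG, with 30 in DNMT1 and 36 and 40 in UHRF1 against a median of 14 over all promoters. For DNMT3B only the start site within chr20:32779602-32779901 was listed, and it held 3 CpG. Any other start site of that gene was searched neither for CpG nor for E2F words. KDM5A, KDM5B and KDM5C held 20, 34 and 22 CpG. A match is a description of letters, and binding was not measured here.

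Levels between genes can be compared only per length, here as CPM per kilobase of the longest coding transcript of GENCODE 29. On that scale DNMT1 led in all 4 groups, with 65.8 ± 2.82 (SD, n = 2) in untreated Surv-GFP and 79.0 ± 1.39 in untreated SurvNESmut-GFP. KDM5C came next in every group, with 46.9 ± 0.277 and 34.5 ± 0.571 in the same order. UHRF1 was in the next place in 3 groups (15.2 ± 0.95 in untreated Surv-GFP, 22.9 ± 0.466 in untreated SurvNESmut-GFP), and in TMZ-exposed Surv-GFP it stood below KDM5A and KDM5B with 8.0 ± 0.854, where its libraries overlapped those of TET3 (7.76 ± 0.323). KDM5A lay between 9.76 ± 0.210 and 13.1 ± 0.425, and KDM5B between 5.52 ± 0.224 and 11.7 ± 0.871. TET3, DNMT3A and TET2 took the middle of the order, and TET2 (5.48 ± 0.00319) and DNMT3A (5.24 ± 0.378) overlapped in TMZ-exposed Surv-GFP. DNMT3B and TET1 closed the order in every group, with TET1 at 1.21 ± 0.0260 in untreated Surv-GFP and 0.464 ± 0.0373 in untreated SurvNESmut-GFP. Apart from the 2 pairs named, neighbours in the order of a group did not overlap. The place of KDM5B depends on the length used, because its annotated exons sum to 25882 bases against 10341 in its longest coding transcript, and with the summed exons it stood at 4.58 rather than 11.5 in untreated Surv-GFP, below TET3. With that length KDM5C (41.6) also stood above DNMT1 (35.7) in TMZ-exposed Surv-GFP, DNMT3B (2.90) stood above TET2 (2.40) in untreated SurvNESmut-GFP, and DNMT3B and TET1 overlapped in TMZ-exposed Surv-GFP.

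**Figure D1:**
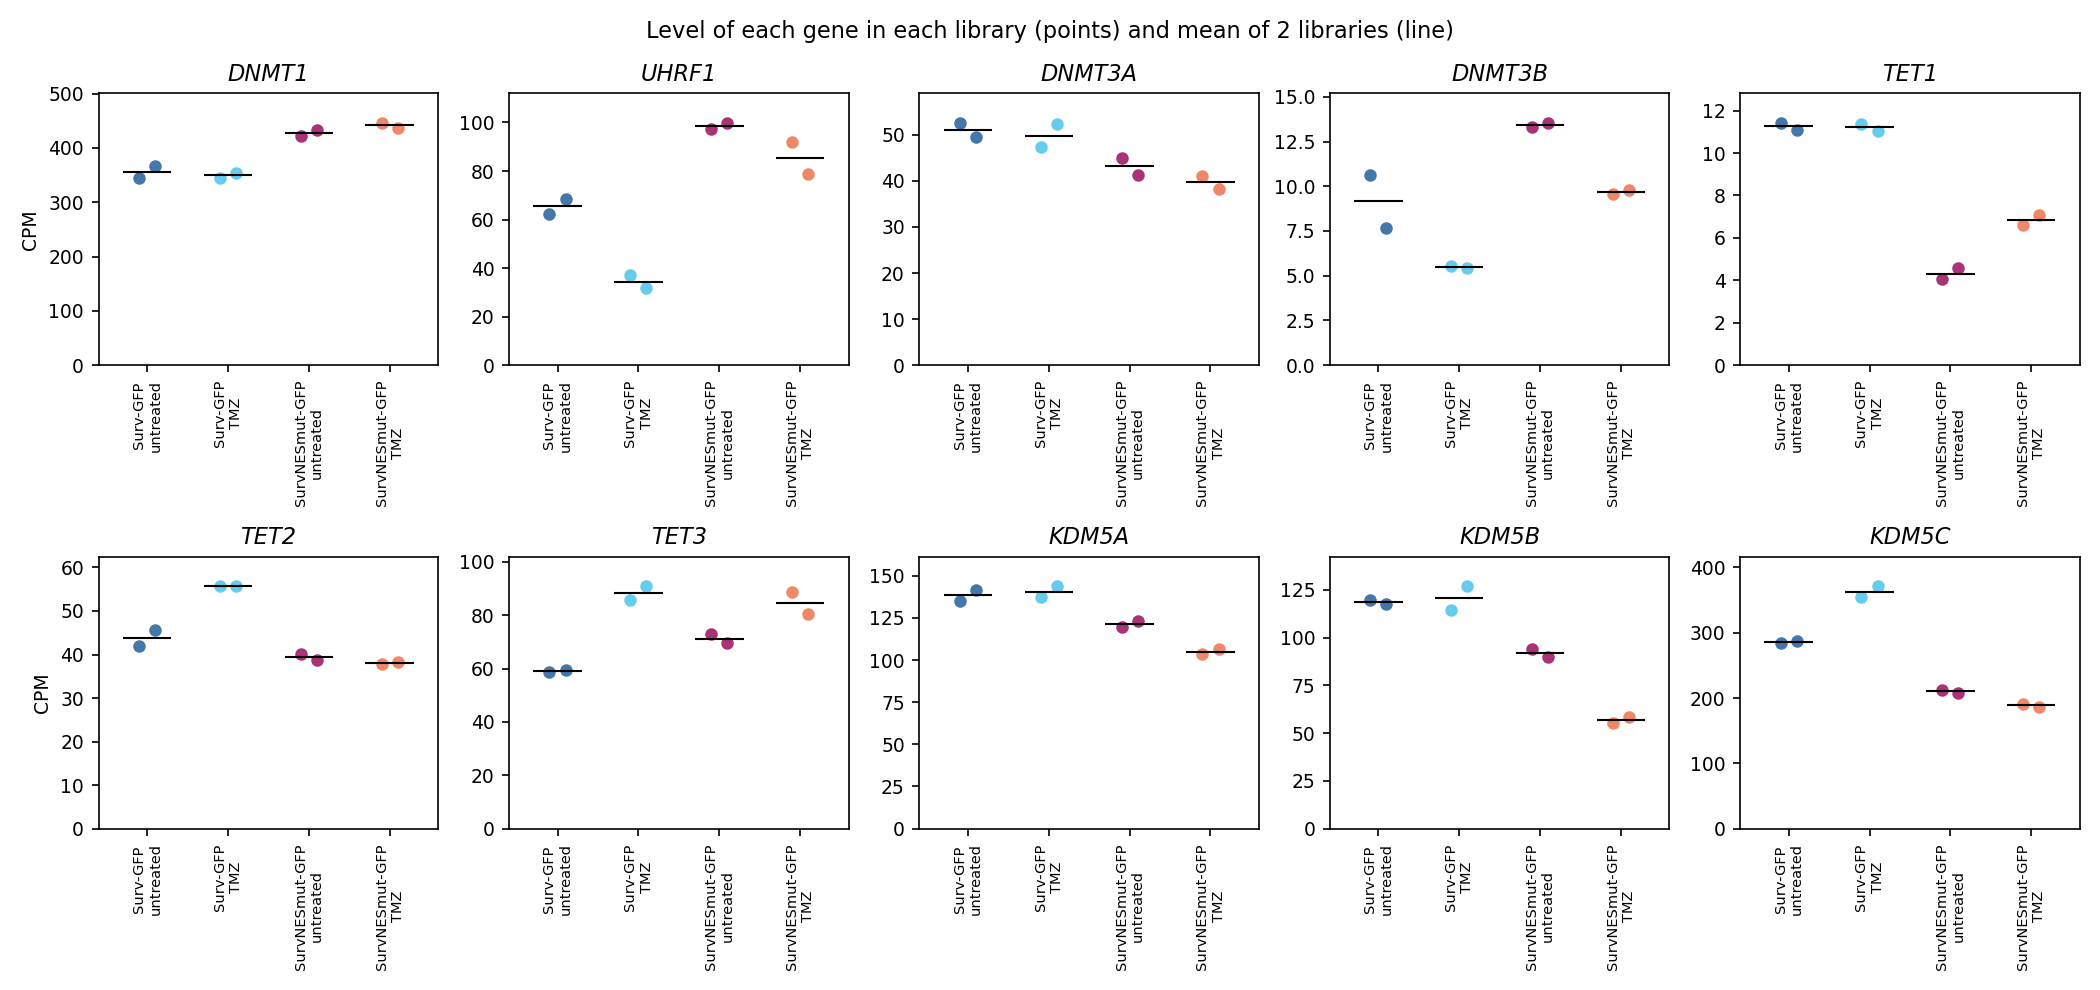
CPM of the 10 genes (vertical axes from 0, one scale per gene) in the 8 libraries, with 2 points and their mean for each of the groups Surv-GFP untreated, Surv-GFP TMZ, SurvNESmut-GFP untreated and SurvNESmut-GFP TMZ. UHRF1 is lowest in TMZ-exposed Surv-GFP (31.9 and 37.1 CPM), TET1 is lowest in untreated SurvNESmut-GFP (4.07 and 4.56 CPM) and KDM5B is lowest in TMZ-exposed SurvNESmut-GFP (55.4 and 58.7 CPM).

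Of the 10 genes, 3 rose and 2 fell upon TMZ in Surv-GFP, where 30.1% of all tested genes rose and 28.9% fell. In SurvNESmut-GFP 2 rose and 5 fell, against 18.6% and 19.1% of all genes. The log2 fold change upon TMZ was higher in SurvNESmut-GFP than in Surv-GFP for 2 genes and lower for 5, against 16.6% and 20.2% of all genes. Between untreated clones 4 genes were higher and 5 lower in SurvNESmut-GFP, against 34.7% and 29.4% of all genes. Between TMZ-exposed clones 3 were higher and 6 lower, against 34.5% and 34.7%. With so many genes called in every comparison, a call by itself does not set a member apart, and the sizes and the single libraries are given below.

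DNMT1, the maintenance methyltransferase, had 345 and 367 CPM in untreated and 345 and 355 CPM in TMZ-exposed Surv-GFP. The SurvNESmut-GFP libraries had 422 and 433 CPM without and 447 and 436 CPM with TMZ. The Surv-GFP groups overlapped, and the 4 libraries of SurvNESmut-GFP lay above the 4 of Surv-GFP. The TMZ effect was −0.03 ± 0.05 on the log2 scale in Surv-GFP (95% confidence interval −0.13 to 0.08, adjusted p = 0.662) and 0.05 ± 0.05 in SurvNESmut-GFP (−0.05 to 0.15, adjusted p = 0.476). A change of DNMT1 beyond 0.15 in either direction lies outside both intervals. Between clones it was higher in SurvNESmut-GFP by 0.26 ± 0.05 untreated (adjusted p = 0.000147) and by 0.34 ± 0.05 with TMZ (adjusted p = 1.03e-05).

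UHRF1, the reader of hemimethylated DNA, had 62.5 and 68.3 CPM in untreated Surv-GFP and 37.1 and 31.9 CPM with TMZ. In SurvNESmut-GFP it had 97.1 and 99.96 CPM without and 92.0 and 78.7 CPM with TMZ. No groups overlapped, and the lowest SurvNESmut-GFP library with TMZ lay above the highest untreated library of Surv-GFP. UHRF1 fell by 0.92 ± 0.08 on the log2 scale in Surv-GFP (adjusted p = 7.97e-08) and by 0.21 ± 0.07 in SurvNESmut-GFP (adjusted p = 0.0368). The latter call was lost with library size alone (adjusted p = 0.0814), with DESeq2 (0.074) and without SurvNESmut-GFP untreated a (0.0993) or b (0.179) or TMZ b (0.296), and its value was −0.09 without TMZ b and −0.32 without TMZ a. The effects differed between clones by 0.72 ± 0.11 (adjusted p = 0.000107). UHRF1 was higher in SurvNESmut-GFP by 0.59 ± 0.07 untreated (adjusted p = 3.11e-06) and by 1.31 ± 0.08 with TMZ (adjusted p = 5.62e-10).

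Within a library, which needs no scaling, UHRF1 had 18.4 ± 0.364 (SD, n = 2) counts per 100 counts of DNMT1 in untreated and 9.87 ± 1.25 in TMZ-exposed Surv-GFP. In SurvNESmut-GFP the ratio was 23.1 ± 0.0664 without and 19.3 ± 1.82 with TMZ. The single libraries of Surv-GFP had 18.1 and 18.6 without and 10.8 and 8.98 with TMZ, and the groups did not overlap in either clone.

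Genes of S phase, in which UHRF1 and DNMT1 act, were counted beside them. In Surv-GFP 23 of 30 fell and 1 rose upon TMZ, with a median log2 fold change of −0.38 against 0 over all tested genes, of which 28.9% fell and 30.1% rose. In SurvNESmut-GFP 8 fell and 5 rose, with a median of 0.01, against 19.1% and 18.6% of all genes. The effect was higher in SurvNESmut-GFP for 24 and lower for 1, with a median difference of 0.41, against 16.6% and 20.2% of all genes. The summed level of the 30 genes was 3999 to 4190 CPM untreated and 3067 to 3188 CPM with TMZ in Surv-GFP, and 4997 to 5105 and 4707 to 4809 CPM in SurvNESmut-GFP. The replicative helicase subunits MCM6 (−1.10 ± 0.05), MCM2 (−0.96 ± 0.05) and MCM5 (−0.82 ± 0.05) fell by amounts near that of UHRF1 in Surv-GFP, whereas the licensing factor CDC6 rose by 0.71 ± 0.06. MCM6 fell in SurvNESmut-GFP as well, by 0.83 ± 0.05, and the licensing factor CDT1 rose there by 0.28 ± 0.05. The part of cell cycle position in the change of UHRF1 was not tested.

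**Figure D2:**
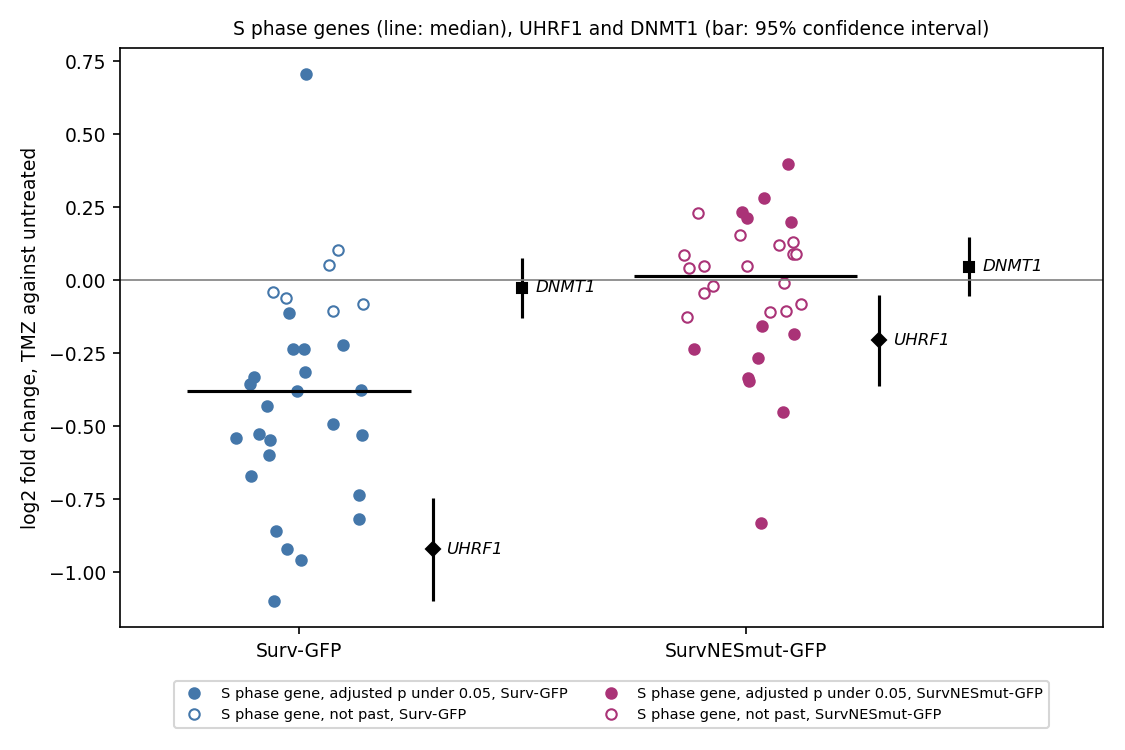
Log2 fold change upon TMZ (vertical axis) of the 30 S phase genes in Surv-GFP and SurvNESmut-GFP, as points that are filled at an adjusted p under 0.05, with the median as a line, and of UHRF1 and DNMT1 with 95% confidence intervals. In Surv-GFP the median is −0.38 and UHRF1 lies at −0.92 while DNMT1 lies at −0.03. In SurvNESmut-GFP the median is 0.01, with UHRF1 at −0.21 and DNMT1 at 0.05.

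Of 18 tested partners and readers of DNA methylation, 5 rose and 8 fell in Surv-GFP (median −0.12), and 2 rose and 6 fell in SurvNESmut-GFP (median −0.01). Among all tested genes 30.1% rose and 28.9% fell in Surv-GFP, and 18.6% and 19.1% in SurvNESmut-GFP, so the risen members were no larger a share than the background in either clone. CDCA7 and CDCA7L, cofactors of the remodeller HELLS, fell in Surv-GFP by 1.14 ± 0.07 and 1.07 ± 0.07. UHRF2, the paralogue of UHRF1, rose there by 0.62 ± 0.07, from 36.8 and 37.2 to 60.5 and 53.3 CPM, so that the paralogues moved in opposite directions. The methyl-CpG binding proteins ZBTB38 and MBD1 rose by 1.21 ± 0.05 and 0.61 ± 0.05. In SurvNESmut-GFP HELLS rose by 0.21 ± 0.07, and USP7, a deubiquitinase of UHRF1 and DNMT1, fell by 0.26 ± 0.05. The TMZ effects differed between clones for CDCA7L by 1.16 ± 0.09, for CDCA7 by 0.94 ± 0.09 and for ZBTB38 by −1.24 ± 0.07.

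DNMT3A, a de novo methyltransferase, had 52.7 and 49.6 CPM in untreated and 47.3 and 52.3 CPM in TMZ-exposed Surv-GFP, and 45 and 41.3 against 41.1 and 38.2 CPM in SurvNESmut-GFP. The Surv-GFP groups overlapped, and all 4 SurvNESmut-GFP libraries lay below them. Neither TMZ effect passed the test (−0.04 ± 0.07 with an interval of −0.19 to 0.11, and −0.12 ± 0.07 with an interval of −0.28 to 0.04, adjusted p = 0.653 and 0.215). DNMT3A was lower in SurvNESmut-GFP by 0.24 ± 0.07 on the log2 scale untreated (adjusted p = 0.00651) and by 0.33 ± 0.07 with TMZ (adjusted p = 0.000815). The untreated call was lost without Surv-GFP untreated a (adjusted p = 0.0762) and without SurvNESmut-GFP untreated b (0.0938).

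DNMT3B, the second de novo enzyme, had 10.6 and 7.67 CPM in untreated Surv-GFP and 5.56 and 5.45 CPM with TMZ. The SurvNESmut-GFP libraries had 13.3 and 13.6 CPM without and 9.59 and 9.77 CPM with TMZ. With and without TMZ the libraries of a clone did not overlap, while the TMZ-exposed SurvNESmut-GFP libraries lay within the range of untreated Surv-GFP. The pair of untreated Surv-GFP libraries lay farthest apart. DNMT3B fell in both clones, by 0.73 ± 0.15 in Surv-GFP (adjusted p = 0.000625) and by 0.47 ± 0.13 in SurvNESmut-GFP (adjusted p = 0.0101), the latter not without SurvNESmut-GFP untreated b (adjusted p = 0.0639). The difference of these effects was 0.26 ± 0.20 with an interval of −0.17 to 0.69 (adjusted p = 0.347). It was higher in SurvNESmut-GFP by 0.55 ± 0.13 untreated (adjusted p = 0.00154) and by 0.81 ± 0.15 with TMZ (adjusted p = 0.000196). Both Surv-GFP untreated libraries weighed on these values, since the Surv-GFP effect was −0.48 without a (adjusted p = 0.0242) and the untreated clone difference 0.34 without b (adjusted p = 0.0423). For each 100 counts of DNMT3A there were 17.8 ± 3.33 (SD, n = 2) of DNMT3B in untreated and 11.1 ± 0.953 in TMZ-exposed Surv-GFP, and 31.2 ± 2.32 and 24.4 ± 1.61 in SurvNESmut-GFP. The de novo pair thus differed in opposite directions between the clones, with DNMT3A lower and DNMT3B higher in SurvNESmut-GFP.

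**Figure D3:**
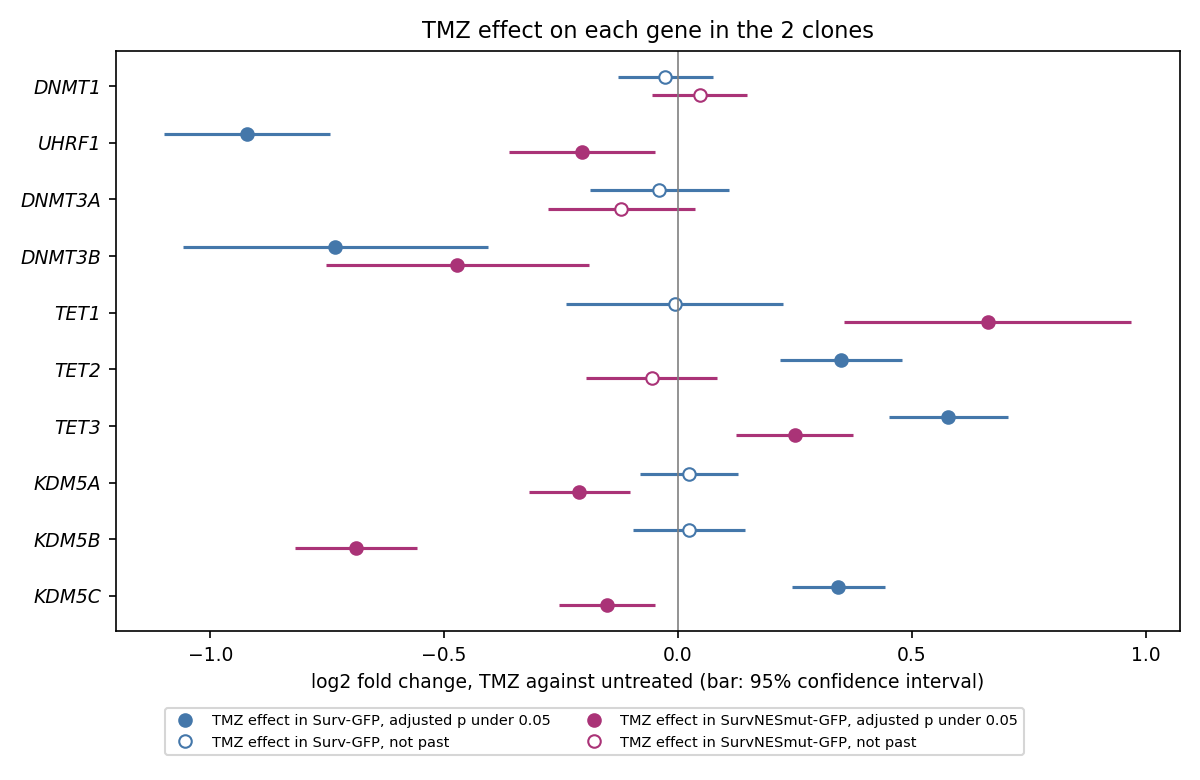
Log2 fold change upon TMZ (horizontal axis) of the 10 genes in Surv-GFP and SurvNESmut-GFP, with 95% confidence intervals and filled points at an adjusted p under 0.05. KDM5C lies on opposite sides of 0 in the clones (0.34 and −0.15), TET3 and DNMT3B lie on the same side in both, and DNMT1 and DNMT3A have intervals across 0 in both.

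TET1, the TET enzyme best known from embryonic stem cells, had 11.4 and 11.1 CPM in untreated and 11.4 and 11.0 CPM in TMZ-exposed Surv-GFP. In SurvNESmut-GFP it had 4.07 and 4.56 CPM without and 6.6 and 7.06 CPM with TMZ. All SurvNESmut-GFP libraries lay below all Surv-GFP libraries, and those with TMZ lay between the untreated groups. TET1 was lower in untreated SurvNESmut-GFP by 1.39 ± 0.13 on the log2 scale (adjusted p = 9.51e-08), the largest untreated clone difference among the 10 genes. It rose upon TMZ there by 0.66 ± 0.14 (adjusted p = 0.00178), while in Surv-GFP the effect was −0.01 ± 0.11 (interval −0.24 to 0.23, adjusted p = 0.966). The effects differed by 0.67 ± 0.18 (adjusted p = 0.00847), and with TMZ the clone difference was −0.72 ± 0.12 (adjusted p = 6.57e-05).

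TET2, which lacks the CXXC domain of TET1 and TET3, had 41.9 and 45.6 CPM in untreated Surv-GFP and 55.7 and 55.7 CPM with TMZ. The SurvNESmut-GFP libraries had 40.2 and 38.8 CPM without and 37.8 and 38.3 CPM with TMZ. The TMZ-exposed Surv-GFP libraries stood above the other 6. TET2 rose in Surv-GFP by 0.35 ± 0.06 (adjusted p = 0.000136), and in SurvNESmut-GFP the effect was −0.06 ± 0.07 (interval −0.20 to 0.08, adjusted p = 0.54). The effects differed by −0.40 ± 0.09 (adjusted p = 0.00226). TET2 was lower in SurvNESmut-GFP with TMZ by 0.55 ± 0.06 (adjusted p = 9.53e-07), and untreated the value was −0.15 ± 0.06 (adjusted p = 0.0565), which passed the threshold in 10 alternatives (adjusted p 0.0118 to 0.0383).

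TET3, the enzyme of this family with the highest level per length here, had 58.8 and 59.4 CPM in untreated Surv-GFP and 85.7 and 90.9 CPM with TMZ. In SurvNESmut-GFP it had 72.9 and 69.6 CPM without and 88.8 and 80.5 CPM with TMZ. The TMZ-exposed groups of the clones overlapped, and the untreated groups did not. TET3 rose by 0.58 ± 0.06 on the log2 scale in Surv-GFP (adjusted p = 3.74e-07) and by 0.25 ± 0.06 in SurvNESmut-GFP (adjusted p = 0.00326), and without SurvNESmut-GFP untreated b the latter had an adjusted p of 0.051. The effects differed by −0.33 ± 0.08 (adjusted p = 0.0058), a call lost without Surv-GFP TMZ b (adjusted p = 0.0549). Untreated it was higher in SurvNESmut-GFP by 0.27 ± 0.06 (adjusted p = 0.000975), and with TMZ the difference was −0.06 ± 0.06 (interval −0.18 to 0.06, adjusted p = 0.375), which became −0.17 with an adjusted p of 0.0204 without SurvNESmut-GFP TMZ a.

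Per length, TET1 made up 11.3% ± 0.530 (SD, n = 2) of the 3 TET transcripts in untreated Surv-GFP and 8.36% ± 0.364 with TMZ, against 4.38% ± 0.461 and 6.19% ± 0.524 in SurvNESmut-GFP. TET3 made up 48.5% ± 0.855 and 53.7% ± 1.15 in Surv-GFP and 59.0% ± 0.428 and 62.4% ± 2.00 in SurvNESmut-GFP. TET2 made up 40.2% ± 1.38 and 37.9% ± 0.788 in Surv-GFP and 36.6% ± 0.0332 and 31.4% ± 1.48 in SurvNESmut-GFP. TET3 had the largest share in every library, and its shares with and without TMZ did not overlap in either clone. These shares were not tested, and they depend on the length used. With summed exons TET2 made up 30.6% and 28.7% in Surv-GFP and 27.7% and 23.2% in SurvNESmut-GFP. TET3 still had the largest share with that length, for example 55.5% in untreated Surv-GFP.

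**Figure D4:**
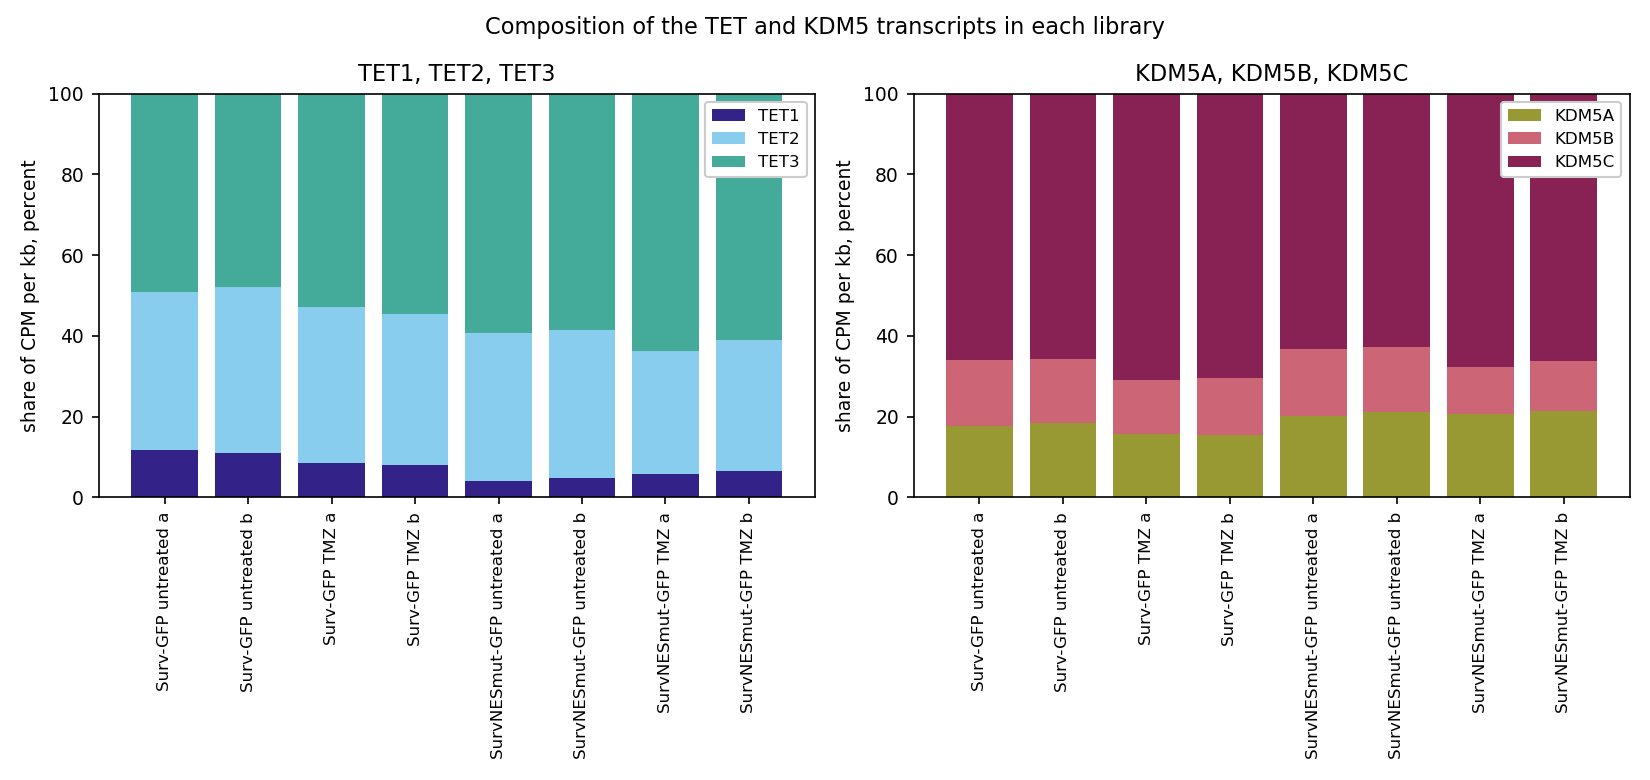
Shares of TET1, TET2 and TET3 (left) and of KDM5A, KDM5B and KDM5C (right) in their summed CPM per kilobase, in percent of each of the 8 libraries (stacked bars). TET1 takes 11.3% on average in untreated Surv-GFP and 4.38% in untreated SurvNESmut-GFP, and KDM5C takes 63.1% to 70.7% on average in the 4 groups.

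Of 14 genes for the removal of oxidised methylcytosine and for TET cofactors, 5 rose and 7 fell in Surv-GFP (median −0.25), and 3 rose and 2 fell in SurvNESmut-GFP (median 0.03). The background was 30.1% risen and 28.9% fallen in Surv-GFP and 18.6% and 19.1% in SurvNESmut-GFP, and the counts of the latter clone lie near it. TDG, the glycosylase that excises formyl- and carboxylcytosine, rose in Surv-GFP by 0.83 ± 0.07, from 24.5 and 25.3 to 44.7 and 43.9 CPM. IDH1, a source of 2-oxoglutarate, rose there by 0.81 ± 0.06. OGT, a glycosyltransferase that binds TET2 and TET3, rose in both clones, by 0.495 ± 0.06 and 0.42 ± 0.06. CXXC5 and CXXC4, CXXC proteins that bind TET2, fell in Surv-GFP, with log2 fold changes of −0.84 ± 0.08 and −1.84 ± 0.24, and CXXC4 had 18 to 70 counts per library in this clone. VDR, the vitamin D receptor, was counted in this list though it is itself no TET cofactor. VDR fell in Surv-GFP by 0.48 ± 0.06 and rose in SurvNESmut-GFP by 0.89 ± 0.06, from 58.7 and 59.5 to 115 and 104 CPM. The effects differed between clones in both directions, by 1.37 ± 0.09 for VDR, 0.61 ± 0.11 for the glycosylase NEIL3 and 0.605 ± 0.12 for CXXC5, and by −0.91 ± 0.11 for TDG and −0.67 ± 0.08 for IDH1.

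All the methyltransferases named here use S-adenosylmethionine as methyl donor. Of 11 tested genes for its supply, 6 fell in Surv-GFP and 0 rose (median −0.25), and in SurvNESmut-GFP 4 fell and 2 rose (median −0.12). Of all genes 28.9% fell and 30.1% rose in Surv-GFP, and 19.1% and 18.6% in SurvNESmut-GFP. SHMT1 of the folate cycle fell by 1.07 ± 0.06 in Surv-GFP, methionine synthase MTR by 0.69 ± 0.05, and the S-adenosylmethionine synthetase MAT2A by 0.52 ± 0.05 from 283 and 279 to 196 and 194 CPM. In SurvNESmut-GFP the regulatory subunit MAT2B fell by 0.44 ± 0.06, and SHMT1 fell by 0.23 ± 0.06. The effect of SHMT1 differed between the clones by 0.83 ± 0.09, and that of MTR by 0.54 ± 0.07.

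KDM5A (RBP2), first described as a partner of the retinoblastoma protein, had 135 and 142 CPM in untreated and 137 and 144 CPM in TMZ-exposed Surv-GFP. The SurvNESmut-GFP libraries had 119.7 and 123 CPM without and 103 and 107 CPM with TMZ. All SurvNESmut-GFP libraries lay below all of Surv-GFP. KDM5A fell in SurvNESmut-GFP by 0.21 ± 0.05 on the log2 scale (adjusted p = 0.00396), and in Surv-GFP the effect was 0.02 ± 0.05 (interval −0.08 to 0.13, adjusted p = 0.712). The difference of these effects was −0.23 ± 0.07 (adjusted p = 0.017). That call was lost with library size alone (adjusted p = 0.062), with DESeq2 (0.0727) and without Surv-GFP untreated a (0.0817), Surv-GFP TMZ b (0.141) or SurvNESmut-GFP untreated b (0.0682). KDM5A was lower in SurvNESmut-GFP by 0.19 ± 0.05 untreated (adjusted p = 0.00369, and 0.0579 without Surv-GFP untreated b) and by 0.42 ± 0.05 with TMZ (adjusted p = 1.57e-06).

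KDM5B (JARID1B), a demethylase linked to slow-cycling tumour cells, had 119.7 and 117 CPM in untreated and 114 and 127 CPM in TMZ-exposed Surv-GFP. In SurvNESmut-GFP it had 94.0 and 89.7 CPM without and 55.4 and 58.7 CPM with TMZ. The Surv-GFP groups overlapped, and the SurvNESmut-GFP libraries with TMZ lay far below the other 6. KDM5B fell in SurvNESmut-GFP by 0.69 ± 0.06 on the log2 scale (adjusted p = 2.49e-07), against 0.02 ± 0.06 in Surv-GFP (interval −0.10 to 0.14, adjusted p = 0.739). The effects differed by −0.71 ± 0.08 (adjusted p = 6.15e-06). It was lower in SurvNESmut-GFP by 0.37 ± 0.06 untreated (adjusted p = 2.95e-05) and by 1.08 ± 0.06 with TMZ (adjusted p = 1.31e-10).

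KDM5C (SMCX), an X-linked demethylase that escapes X inactivation, had 285 and 287 CPM in untreated Surv-GFP and 354 and 371 CPM with TMZ. The SurvNESmut-GFP libraries had 213 and 208 CPM without and 192 and 187 CPM with TMZ. The groups did not overlap, and the clones moved in opposite directions. KDM5C rose in Surv-GFP by 0.34 ± 0.05 on the log2 scale (adjusted p = 9.18e-06) and fell in SurvNESmut-GFP by 0.15 ± 0.05 (adjusted p = 0.0204). The latter call was lost with library size alone (adjusted p = 0.0681) and without SurvNESmut-GFP untreated a (0.117) or b (0.0542) or TMZ b (0.0613). The difference of the effects was −0.49 ± 0.07 (adjusted p = 2.82e-05). Between clones KDM5C was lower in SurvNESmut-GFP by 0.44 ± 0.05 untreated (adjusted p = 4.55e-07) and by 0.94 ± 0.05 with TMZ (adjusted p = 4.15e-11).

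Per length, KDM5C made up 65.9% ± 0.121 (SD, n = 2) of the 3 KDM5 transcripts in untreated and 70.7% ± 0.398 in TMZ-exposed Surv-GFP, and 63.1% ± 0.334 and 67.0% ± 1.02 in SurvNESmut-GFP. KDM5B made up 16.1% ± 0.336 and 13.8% ± 0.497 in Surv-GFP and 16.3% ± 0.347 and 11.9% ± 0.514 in SurvNESmut-GFP. KDM5A made up 18% ± 0.457 and 15.5% ± 0.0984 in Surv-GFP and 20.7% ± 0.681 and 21.1% ± 0.508 in SurvNESmut-GFP. In both clones the libraries with TMZ had larger shares of KDM5C and smaller shares of KDM5B than those without, and these shares were not tested. They depend on the length used, and with summed exons KDM5B made up 9.39% and 8.04% in Surv-GFP and 9.42% and 6.77% in SurvNESmut-GFP. With TMZ, the KDM5 genes, TET1, TET2 and DNMT3A were lower in SurvNESmut-GFP than in Surv-GFP, and DNMT1, UHRF1 and DNMT3B were higher.

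Genes of the MLL, SETD1 and PAF1 complexes, which write H3K4 methylation or promote it, were counted with related genes, not all of which do so. Of 30 tested, 9 rose and 13 fell in Surv-GFP (median 0.0006), and 7 rose and 7 fell in SurvNESmut-GFP (median 0.03). Over all tested genes 30.1% rose and 28.9% fell in Surv-GFP, and 18.6% and 19.1% in SurvNESmut-GFP, so most of these counts lie near the background. RBBP5, a core subunit of the MLL and SETD1 complexes, rose by 0.43 ± 0.06 and 0.29 ± 0.06, and KMT2E fell by 0.33 ± 0.05 and 0.25 ± 0.05. The PAF1 complex subunit CDC73 rose by 0.46 ± 0.05 in Surv-GFP, where its partner RTF1 fell by 0.58 ± 0.05. Untreated, KMT2D was lower in SurvNESmut-GFP by 0.83 ± 0.08, from 299 and 319 CPM in Surv-GFP to 176 and 171 CPM.

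Corepressor partners of the KDM5 proteins were counted together with the demethylase LSD1 (KDM1A), its relative KDM1B and RCOR corepressors. Among these 17 genes, 3 rose and 11 fell in Surv-GFP (median −0.26), and 3 rose and 9 fell in SurvNESmut-GFP (median −0.17). All genes gave 30.1% risen and 28.9% fallen in Surv-GFP and 18.6% and 19.1% in SurvNESmut-GFP, and the risen members of SurvNESmut-GFP lie at that share. ZMYND8, a reader that works with KDM5 proteins, fell by 1.14 ± 0.06 and 0.61 ± 0.06, from 250 and 259 to 118 and 113 CPM in Surv-GFP. CHD4, the remodeller of the NuRD complex, fell by 0.78 ± 0.04 and 0.40 ± 0.04. GATAD1, which is found with KDM5A, rose by 0.62 ± 0.05 and 0.19 ± 0.05. The H3K4 demethylase KDM1B rose in SurvNESmut-GFP by 0.39 ± 0.07, and its effect differed from that in Surv-GFP by 0.65 ± 0.10.

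Other JmjC demethylases, which share the cofactors of KDM5, included much larger changes. Of 18 tested, 8 rose and 6 fell in Surv-GFP (median 0.18), and 2 rose and 6 fell in SurvNESmut-GFP (median −0.10), against 30.1% and 28.9% of all genes in the former clone and 18.6% and 19.1% in the latter. The effect was lower in SurvNESmut-GFP for 9 and higher for 3, with a median difference of −0.39, against 20.2% and 16.6% of all genes. KDM7A had 45.4 and 44.4 CPM in untreated and 182 and 179 CPM in TMZ-exposed Surv-GFP, a rise of 2.01 ± 0.05 on the log2 scale, against 0.85 ± 0.06 in SurvNESmut-GFP. KDM6B (JMJD3), an H3K27 demethylase, rose in Surv-GFP by 1.71 ± 0.06 from 34.0 and 32.9 to 109 and 111 CPM, and in SurvNESmut-GFP it had 33.1 and 33.9 CPM without and 35.9 and 35.4 CPM with TMZ. KDM3A, an H3K9 demethylase, fell in both, by 0.30 ± 0.05 and 0.74 ± 0.05. The rise of KDM5C in Surv-GFP was small beside those of KDM7A and KDM6B.

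Germline genes, many of them cancer/testis genes that promoter methylation commonly keeps silent in somatic cells, differed between the clones in both directions. Of 31 looked up, 13 were tested, and 13 had 0 counts in all 8 libraries, among them DAZL, MAEL and TDRD1. Some of the 13 passed the filter only through the clone in which they are high and so had to differ, which is why they are given as counts with no test. PAGE2, SSX1, MAGEB2 and MAGEB1 are named because their p was among the smallest of this list between the untreated clones. The intervals below therefore describe counting error and are no test of a clone difference. PAGE2 had 1 and 0 counts in untreated Surv-GFP and 761 and 711 in untreated SurvNESmut-GFP, a ratio of 1477 with an exact 95% interval of 265 to 58390 for counting error only. SSX1 had 4 and 3 counts in untreated Surv-GFP and 760 and 721 in untreated SurvNESmut-GFP, and MAGEB2 had 56 and 64 against 886 and 870. MAGEB1 went the other way, with 58 and 51 counts against 0 and 3, a ratio of 0.0276 with an interval of 0.00561 to 0.0829. MAGEA1, MAGEA3, MAGEA6, MAGEA10 and MAGEA12 were well expressed in both clones. Summed over the untreated libraries of a clone, they had 1533 to 3028 counts in Surv-GFP and 1577 to 4522 in SurvNESmut-GFP. PAGE5, chosen for display after its values were seen, had 18 and 14 counts in untreated Surv-GFP and 0 in both untreated SurvNESmut-GFP libraries, which allows up to 3 counts in each.

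Upon TMZ, 4 of the 13 tested germline genes rose in Surv-GFP and 0 fell (median 0.19), against 30.1% and 28.9% of all genes, led by MAGEA10 (0.45 ± 0.06), MAGEA3 (0.31 ± 0.05) and MAGEA12 (0.24 ± 0.06). In SurvNESmut-GFP 0 rose and 2 fell (median −0.11), against 18.6% and 19.1% of all genes, namely MAGEA1 by 0.19 ± 0.05 and SSX1 by 0.25 ± 0.07. PAGE2, SSX1 and MAGEB1 had 0 to 4 counts in the clone where they were low with TMZ too. Such genes could hardly be called in that clone. The counts of risen and fallen germline genes and the medians therefore do not compare like with like against all genes. MAGEA, SSX, PAGE and CTAG genes have near-identical copies among which reads can be split, so single values in these families are uncertain. Methylation itself was not measured in these files, and the part of the enzymes described above in the state of these genes was not tested.

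**Figure D5:**
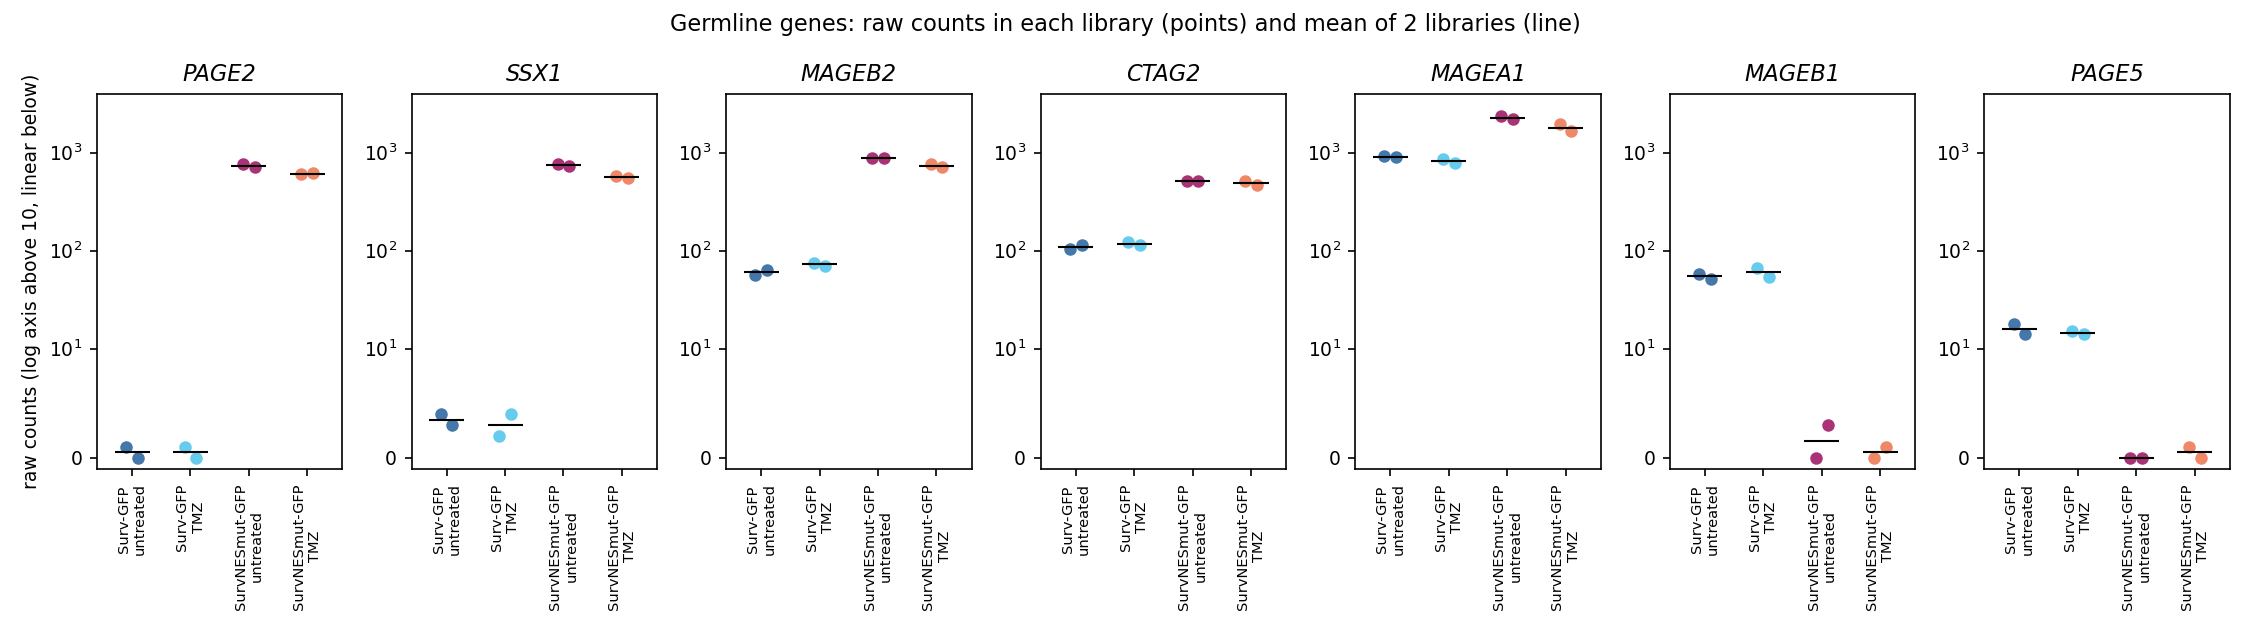
Raw counts (vertical axis, linear to 10 and logarithmic above) of 7 germline genes in the 8 libraries, with the mean of the 2 libraries of each group as a line. PAGE2 has 0 or 1 counts in the 4 Surv-GFP libraries and 601 to 761 in the 4 SurvNESmut-GFP libraries, and MAGEB1 has 51 to 67 and 0 to 3.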

How the data were processed

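RNA from 2 LN229 clones with and without TMZ was measured in 8 libraries, grouped into 4 groups of 2 by clone, exposure and letter in their labels. The authors deposited raw read counts, listed by symbol for 26364 genes. A further 2 rows hold reads with no feature (11.2% to 14.3% of a library) or an ambiguous one (1.19% to 1.28%) and were left out. The submitters' processing notes name STAR 2.5.0b, Cufflinks 2.2.1 and edgeR. For the counting, no build, annotation or strand setting was found in the sources used here. The authors' 5 comparison tables, which hold fold changes with their test statistics, were not used.

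The tests ran in edgeR 4.0.16 with limma 3.58.1 (R 4.3.3). Genes were filtered by group, scaled by TMM and fitted with 4 group means over the 8 libraries, and 5 contrasts were tested by the quasi-likelihood F test with Benjamini-Hochberg adjustment over 14201 genes. The standard error is the log2 fold change divided by the root of F. The script was tested on simulated data with known changes. The alternatives were DESeq2 1.42.0 and its size factors, library size alone, other filters, other quasi-likelihood settings, the replicate block, a fit to the 4 libraries of one comparison, and leaving out one library at a time. Ratios of counts have exact Clopper-Pearson intervals, which cover counting error only.

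Lengths came from GENCODE 29 and promoters from RefSeq, and all 10 genes matched both by symbol. Exons of other genes covered 1.51% of the exon bases of KDM5A, 0.847% of DNMT1 and none of the other members. The members and the 10 lists were chosen with earlier results of these data known. Of each list except markers, at most 3 genes per contrast and direction could be named, with the smallest p among those past the threshold whose groups did not overlap. CDKN1A and BIRC5 were given as checks.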

Additional observations from a re-analysis of the deposited data

Results flagged for a closer look

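For 7 of the 10 genes the effect of TMZ differed between the clones in the test of the difference itself (edgeR, adjusted p under 0.05). On the log2 scale, as SurvNESmut-GFP minus Surv-GFP, UHRF1 differed by 0.72 and TET1 by 0.67. TET2 differed by −0.40, TET3 by −0.33, KDM5A by −0.23, KDM5B by −0.71 and KDM5C by −0.49. Of these, KDM5C moved in opposite directions in the clones, UHRF1 and TET3 moved the same way by unequal amounts, and TET1, TET2, KDM5A and KDM5B were called in one clone. The call of the difference was lost in 5 alternatives for KDM5A and in 1 for TET3, and within SurvNESmut-GFP the fall of UHRF1 lost its call in 5 alternatives, that of KDM5C in 4 and the rise of TET3 in 1. Over all tested genes 16.6% had a higher and 20.2% a lower effect in SurvNESmut-GFP.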

How the results depend on the processing

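Of 840 values of the 10 genes under alternative settings, 799 kept their direction and their side of the threshold, 20 in 8 results lost the call, 11 in 2 results gained it and 10 in 6 results changed sign. The sign changed only for values near 0. With a filter of 1 CPM in 2 libraries the TMZ effect in Surv-GFP was −0.0190 for KDM5A and −0.0184 for KDM5B. With each library left out in turn, that effect ranged from −0.0790 to 0.0202 for DNMT1, −0.15 to 0.0356 for DNMT3A, −0.0294 to 0.0167 for TET1, −0.0416 to 0.0597 for KDM5A and −0.0853 to 0.10 for KDM5B, and the difference of TMZ effects from −0.15 to 0.0230 for DNMT3A. A lone library left in a group was assumed to vary like the other groups. With library size alone 3 genes fell in SurvNESmut-GFP, as UHRF1 and KDM5C lost their calls. Their effects went from −0.21 to −0.17 and from −0.15 to −0.12. The median over all tested genes went from 0.0035 to 0.0393 in the same comparison. With a library left out, 1 to 2 genes rose and 2 to 5 fell in SurvNESmut-GFP, and 3 to 5 had a lower effect there than in Surv-GFP. Of 168 counts of members recomputed, 162 were within 1.5 times the reported count. With the replicate block, 50 of 50 calls and directions of the members were unchanged (UHRF1 in Surv-GFP −0.92), and deviations of libraries with the same letter correlated by −0.098 to 0.097, so the letters were not treated as pairs. Levels per kilobase moved by more than 1 SD in 35 of 40 cases with the summed exon length, an alternative chosen after seeing the data. TET1 and DNMT3B, with the lowest counts, had the widest errors, and the TMZ-exposed SurvNESmut-GFP libraries differed most from each other.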
